A study of Mus musculus with 6 samples.

Results

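Igf1 (insulin-like growth factor 1) was read by 2 probes of the Arraystar mouse lncRNA microarray, named ASMM10P004812 and ASMM10P053930, in the hippocampus of Nrf2 (+/+) and Nrf2 (−/−) mice. Both were among the 43528 probes tested of 60915 on the array. They were selected on the comparison described here, since both stood on the study's list of changed mRNAs (an unadjusted p under 0.05 and a fold change above 1.5), so the genotype differences below are a description and not a test. After quantile normalization, which gives every array the same distribution of signals, ASMM10P004812 was 2.85-fold lower in Nrf2 (−/−) mice (95% interval 1.66 to 4.90) and ASMM10P053930 was 1.74-fold lower (1.16 to 2.63), with n = 3 mice per genotype. Before that step the knockout arrays were the brighter ones. On that scale the first probe still had a lower mean in the knockout, and the means of the second differed by only -0.11 on the log2 scale.

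The groups were 3 wild-type and 3 Nrf2 gene knockout male mice of the outbred ICR background, aged 3 to 4 months, with 1 array per mouse and no treatment. Hippocampal RNA freed of rRNA was amplified with random primers, labeled with Cy3 and hybridized to 1-color arrays. Genotypes had been determined by PCR of tail DNA, and the sources used here name neither a cell-type limit of the knockout nor a shared litter of the mice. The probe of Nfe2l2, the gene that encodes Nrf2, read 12.20 ± 0.24 log2 units in Nrf2 (+/+) and 7.93 ± 0.10 in Nrf2 (−/−) mice (SD, n = 3; log2 fold change -4.27, limma adjusted p = 0.000672), which matches the labels, although its place relative to the deleted part of the gene is not given in the sources used here.

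Igf1 is a secreted growth factor that acts through the receptor Igf1r and, downstream of it, through the kinases of the PI3K and Akt pathway, and binding proteins hold most of it in the circulation. The liver supplies the circulating protein under growth hormone, while brain tissue makes its own, with neurons, including interneurons, and microglia among the cells known to express it. It is known for supporting neuron survival, neurogenesis and synaptic plasticity in the hippocampus. Nrf2 is a transcription factor that binds antioxidant response elements in the promoters of detoxification and antioxidant genes. In bulk tissue such as this, fewer cells that express Igf1 and less Igf1 RNA per cell cannot be told apart.

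The promoter of Igf1 is shown because the missing protein is a factor that binds DNA. The 250 bases before the start of the gene in RefSeq (assembly GRCm38.p6, plus strand, chr10:87860861-87861110) read as follows, 5′ to 3′, with capitals reserved for the core of the antioxidant response element:

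Igf1 promoter: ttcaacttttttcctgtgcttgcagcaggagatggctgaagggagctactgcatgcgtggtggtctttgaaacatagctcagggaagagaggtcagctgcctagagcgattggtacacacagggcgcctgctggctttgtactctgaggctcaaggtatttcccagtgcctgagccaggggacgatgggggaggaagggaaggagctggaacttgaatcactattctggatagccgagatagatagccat

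The core motif TGACNNNGC was searched on both strands and had 0 matches here, so no base is in capitals. It was present in 3338 of 32851 RefSeq promoters, or 10.2%, searched over the same 250 bases before the gene start. A lack of these letters in this window says nothing of Nrf2 binding elsewhere at the gene.

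Each Igf1 probe lay on the array once, far from the other (row 335 and column 59 for ASMM10P004812, row 15 and column 4 for ASMM10P053930). The background-subtracted signal of ASMM10P004812, as scanned and in arbitrary units, was 772, 904 and 440 in Nrf2 (+/+) replicates 1, 2 and 3, and 331, 552 and 271 in Nrf2 (−/−) replicates 1, 2 and 3. Nrf2 (−/−) replicate 2 was above Nrf2 (+/+) replicate 3, so the genotypes overlapped on this scale. The scanner software put the error of each of these values at 10.0% to 10.3%, and the spot was 15.9 to 37.1 times as bright as its local background.

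ASMM10P053930 was a dim spot. Its signal was 142, 134 and 107 in Nrf2 (+/+) replicates 1, 2 and 3, and 120, 177 and 77.4 in Nrf2 (−/−) replicates 1, 2 and 3. The highest and the lowest of the 6 arrays were both knockout arrays. Its error was put at 10.5% to 13.7%, with the spot 4.93 to 8.25 times as bright as its local background. On each of the 6 arrays both probes passed the scanner software's call for signal well above background, and neither spot had an outlier flag. The local background around ASMM10P004812 carried an outlier flag on the array of Nrf2 (−/−) replicate 2. Signals of different probes do not rank amounts of RNA, since probes differ in how they hybridize, and the 2 levels were not ranked. Their difference within an array is used below only to compare the genotypes.

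Quantile normalization raised both probes on every Nrf2 (+/+) array and lowered them on every Nrf2 (−/−) array. The normalized log2 signal of ASMM10P004812 was 9.73, 10.16 and 9.22 in Nrf2 (+/+) replicates 1, 2 and 3, and 7.86, 8.77 and 7.95 in Nrf2 (−/−) replicates 1, 2 and 3. All knockout arrays were below all wild-type arrays, with a gap of 0.45 log2 units between the nearest. The means were 9.70 ± 0.47 and 8.19 ± 0.50 (SD, n = 3), a log2 fold change of -1.51 (SE 0.34, 95% interval -2.29 to -0.73).

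The normalized log2 signal of ASMM10P053930 was 7.36, 7.36 and 7.27 in Nrf2 (+/+) replicates 1, 2 and 3, and 6.38, 7.03 and 6.18 in Nrf2 (−/−) replicates 1, 2 and 3. The wild-type arrays were nearly level with each other and the knockout arrays spread more widely, the nearest pair across genotypes being 0.24 apart. The means were 7.33 ± 0.05 and 6.53 ± 0.45 (SD, n = 3), a log2 fold change of -0.80 (SE 0.25, 95% interval -1.39 to -0.21). As a record, limma gave the probes an unadjusted p of 0.00229 and 0.0146, ranks 302 and 866 among all probes tested, and a Benjamini-Hochberg adjusted p of 0.328 and 0.732, so neither passed an adjusted p of 0.05.

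**Figure D1:**
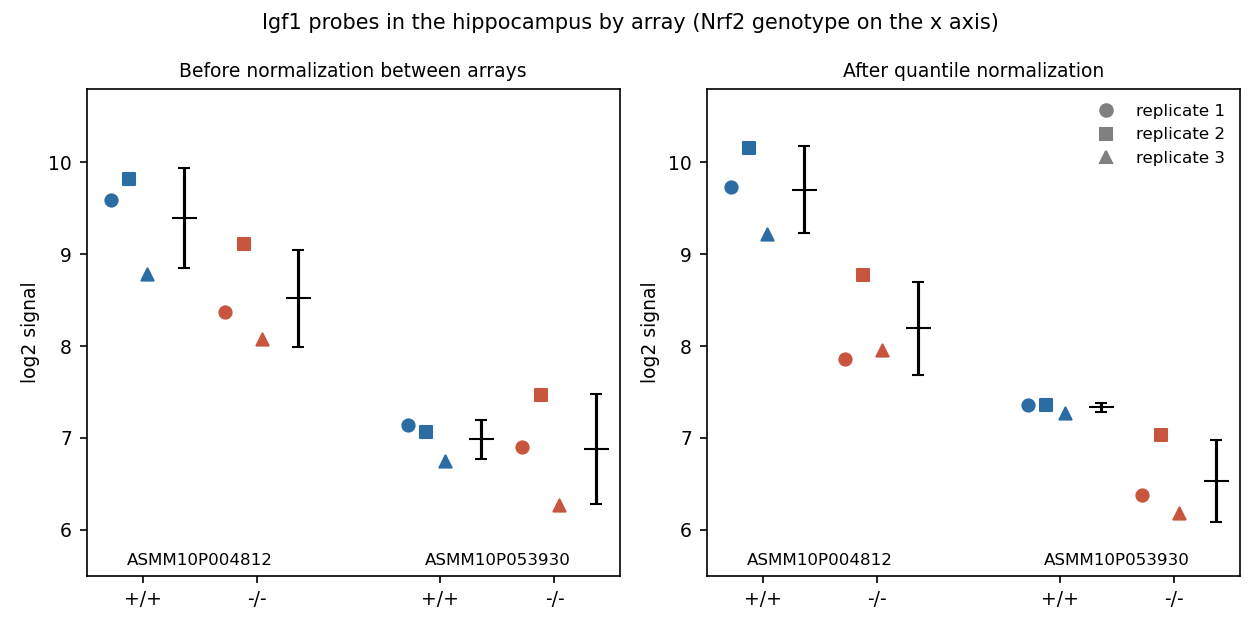
Log2 signal of the 2 Igf1 probes on each array (symbols by replicate, blue for Nrf2 (+/+) and red for Nrf2 (−/−)), before normalization between arrays on the left and after quantile normalization on the right; the crosses are means and the bars ± 1 SD (n = 3). The genotypes overlapped for both probes before normalization, and after it the gaps were 0.45 and 0.24 log2 units.

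Over all probes tested, 1156 (2.66%) had an unadjusted p under 0.05 and were over 1.5-fold lower in Nrf2 (−/−) mice, and 544 (1.25%) were over 1.5-fold higher by the same rule. The adjusted p was under 0.05 for 21 probes (0.0482%). For 2694 probes (6.19%), all knockout arrays lay below all wild-type arrays. Both Igf1 probes belonged to the first and the last of these counts. The first count uses the thresholds by which they were chosen, and that choice made the last likely, so neither is a separate finding.

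The median signal of the arrays was 107, 104 and 86.0 in Nrf2 (+/+) replicates 1, 2 and 3, and 181, 169 and 136 in Nrf2 (−/−) replicates 1, 2 and 3, so every knockout array was brighter than every wild-type array. Between 65.5% and 75.7% of the probes were well above background on an array, and no spot was saturated. Across the probes tested, the median difference between knockout and wild type was 0.62 log2 units before normalization, -0.01 after quantile normalization and 0.03 after a shift of each array to its 75th percentile. The source of this difference in brightness was not tested.

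For the Igf1 probes this step moved the difference between knockout and wild type by -0.63 for ASMM10P004812 and by -0.70 for ASMM10P053930. Quantile normalization moved ASMM10P004812 by 0.14, 0.34 and 0.43 on the wild-type arrays and by -0.52, -0.34 and -0.13 on the knockout arrays. It moved ASMM10P053930 by 0.22, 0.29 and 0.52 on the wild-type arrays and by -0.53, -0.43 and -0.09 on the knockout arrays. Without it, the means of the first probe were 9.40 ± 0.55 and 8.52 ± 0.53 (SD, n = 3), a difference of -0.88, and those of the second were 6.99 ± 0.21 and 6.88 ± 0.60, a difference of -0.11. The second probe was thus nearly level between the genotypes as scanned, while the median probe was brighter on the knockout arrays.

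**Figure D2:**
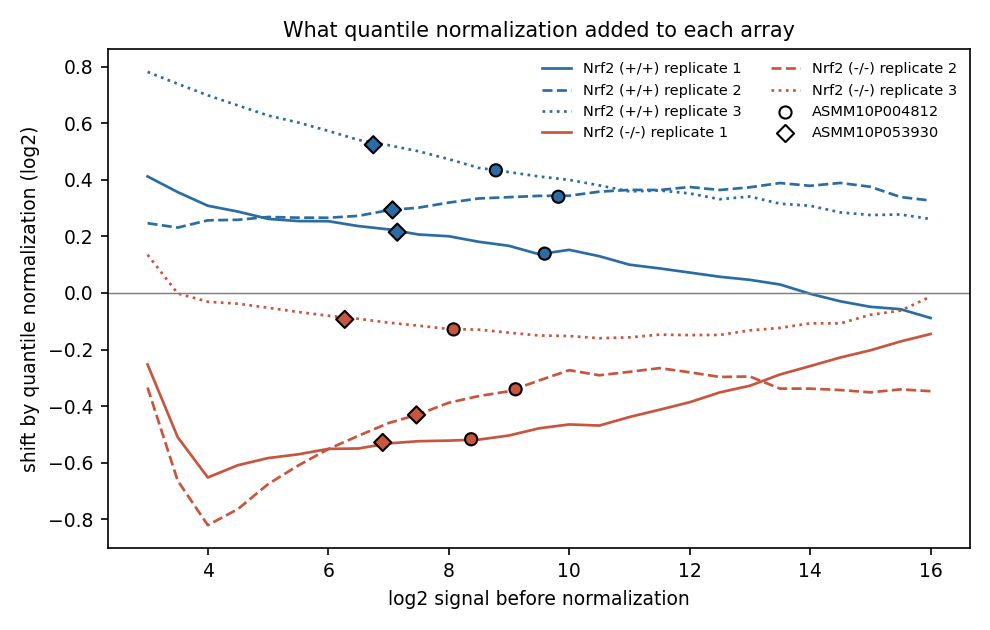
Change of the log2 signal by quantile normalization (y axis) against the log2 signal before it (x axis), with a line for each array (blue for Nrf2 (+/+), red for Nrf2 (−/−)) and the positions of ASMM10P004812 (circles) and ASMM10P053930 (diamonds) on it. Both probes were moved up on the 3 wild-type arrays, by 0.14 to 0.52, and down on the 3 knockout arrays, by 0.09 to 0.53.

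The signals without normalization were also set against those of probes of like brightness, which corrects for brightness much as the normalization does and describes the same values on which the probes were selected. The 2689 tested probes whose mean signal lay within 0.25 log2 units of ASMM10P004812 had a median difference of 0.63 between knockout and wild type, so that this probe differed from their median by -1.504, and 0.855% of them lay lower still. The 3098 probes of like brightness to ASMM10P053930 had a median difference of 0.73, which left this probe at -0.83 from their median, with 2.52% of them lower. Around the spots, within 10 rows and columns, the median log2 fold change after normalization was -0.01 over 298 spots near the first probe and -0.0048 over 214 spots near the second.

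Slides and scan sessions were inferred from the recorded scan times and not read from a label. Arrays with the same scan time were taken as 1 slide, and sessions were split by the hour of the scan. Of the 4 slides so inferred, 2 held arrays of both genotypes, and so did each of the 2 scan sessions. On the slide of both replicates 1, knockout minus wild type was -1.88 for ASMM10P004812 and -0.99 for ASMM10P053930, and on the slide of both replicates 3 it was -1.26 and -1.09. Within the scan session of Nrf2 (+/+) replicate 1 and Nrf2 (−/−) replicates 1 and 2 the differences were -1.42 and -0.66, and within the other session they were -1.74 and -1.14. Their direction was fixed by the lack of overlap between the genotypes, and the values show the size only. With the slide as a block in the model, which leaves the difference to the 2 slides that held both genotypes and 1 residual degree of freedom, the log2 fold changes were -1.57 and -1.04. As a record for probes chosen from this contrast, limma then gave an adjusted p of 0.0260 and 0.0490, with 574 of all probes under 0.05 instead of 21, whereas with the replicate number as a block, which keeps the same 2 pairs of arrays together, it gave 0.207 and 0.245, with 0 probes under 0.05 (7090 by the unadjusted p). Before normalization, the first probe was lower in the knockout on both slides and in both sessions (-1.22, -0.70, -0.85 and -1.22), and the second on both slides and in the second session only (-0.24, -0.47 and -0.63), with 0.04 in the first session.

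**Figure D3:**
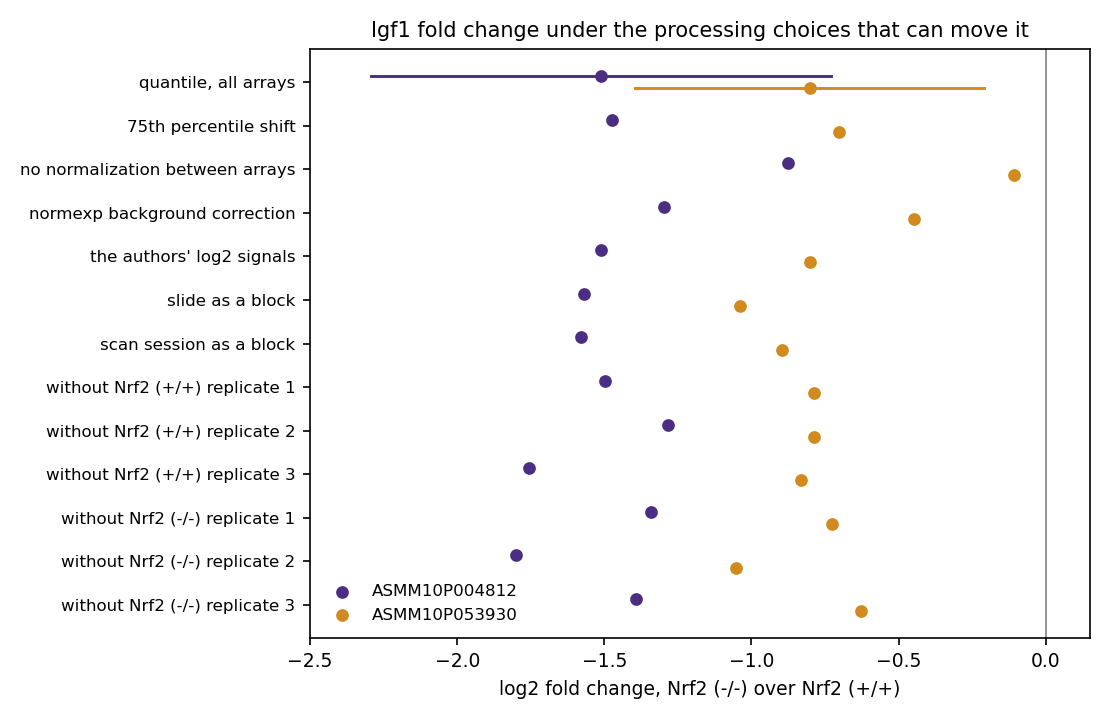
Log2 fold change of ASMM10P004812 (purple) and ASMM10P053930 (orange), Nrf2 (−/−) over Nrf2 (+/+), under the processing choices and with each array left out, with the 95% interval of limma drawn for the first line. Every point is below 0, and the points nearest to 0 are those without normalization between arrays, at -0.88 and -0.11. With an array left out, or slide or scan session as a block, the sign was fixed by the lack of overlap between the genotypes.

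The probes were next set against each other across and within genotypes. Over the 6 arrays the normalized log2 signals had a Pearson r of 0.93 (Spearman 0.89), and without the 2 arrays farthest from the median of the first probe (Nrf2 (+/+) replicate 2 and Nrf2 (−/−) replicate 1) r was 0.95. Much of this follows from the choice of probes that were lower in the same 3 mice, and the points share array, labeling and normalization. An r at least as high was found with ASMM10P004812 for 0.507% of the 43527 other probes, and with ASMM10P053930 for 0.556% of them.

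Within genotypes the likeness of the normalized signals was weaker, while without normalization between arrays the order was turned, with r = 0.70 for the signals and 0.85 for the deviations. The normalized deviations of ASMM10P004812 from its genotype mean were 0.03, 0.46 and -0.49 in Nrf2 (+/+) replicates 1, 2 and 3, and -0.34, 0.58 and -0.24 in Nrf2 (−/−) replicates 1, 2 and 3. Those of ASMM10P053930 were 0.03, 0.03 and -0.06 in Nrf2 (+/+), and -0.15, 0.50 and -0.35 in Nrf2 (−/−), in the same order. Nrf2 (−/−) replicate 2 was thus the highest knockout array for both probes and Nrf2 (+/+) replicate 3 the lowest wild-type array for both. The deviations had r = 0.76 over 6 arrays (Spearman 0.71), and 0.32 without Nrf2 (−/−) replicate 2, so the within-genotype likeness rested on that mouse. An r of deviations at least this high was reached with the first probe by 20.7% of all other probes and with the second by 14.1%, so it did not set the Igf1 pair apart from probes at large.

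**Figure D4:**
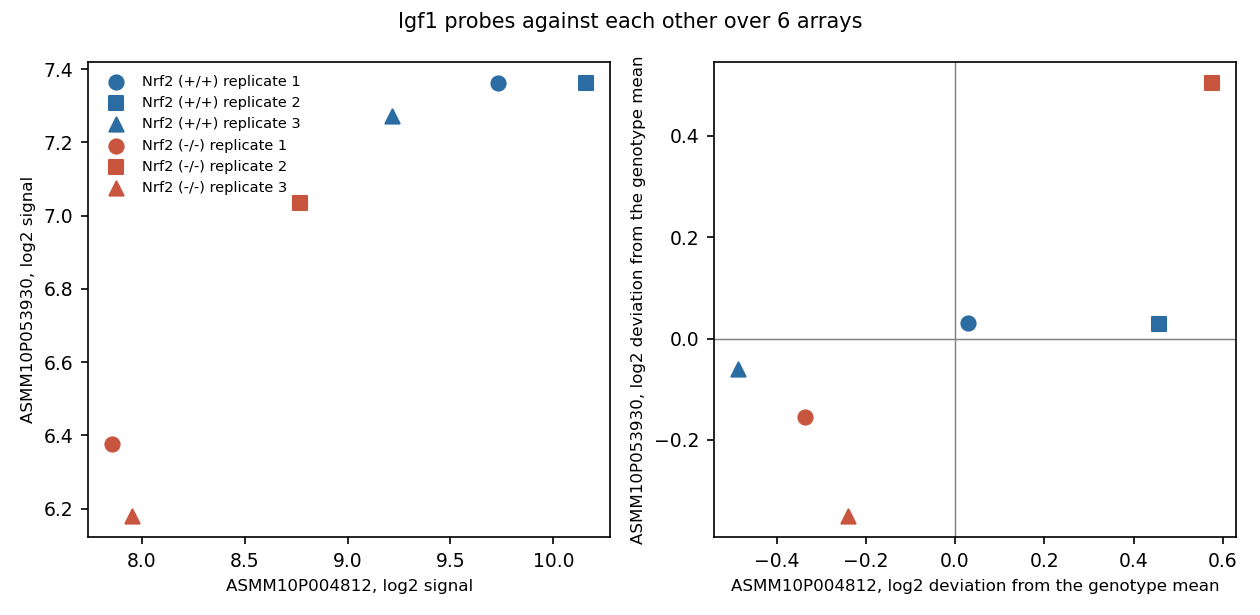
ASMM10P053930 (y axis) against ASMM10P004812 (x axis) on the 6 arrays, as normalized log2 signals on the left and as deviations from the genotype mean on the right (log2; blue for Nrf2 (+/+), red for Nrf2 (−/−), symbols by replicate). The 3 knockout arrays lie below and to the left of the 3 wild-type arrays (r = 0.93), and on the right Nrf2 (−/−) replicate 2 stands alone at the upper end (r = 0.76 with it and 0.32 without it).

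The size of the genotype difference was then compared between the probes. The difference between their log2 signals within an array, which cancels any scaling of a whole array, was 2.37, 2.80 and 1.94 in Nrf2 (+/+) replicates 1, 2 and 3, and 1.48, 1.74 and 1.77 in Nrf2 (−/−) replicates 1, 2 and 3. All knockout values were below all wild-type values. Its mean moved by -0.71 between the genotypes (SE 0.26, 95% interval -1.44 to 0.02), and by -0.77 (SE 0.23, -1.41 to -0.13) in the signals without normalization. These intervals describe the genotype values by which both probes were selected and are no test of unequal fold changes. Which exons or transcripts of Igf1 each probe reads was not analysed here.

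The spread between mice of one genotype, pooled over both, was 0.49 log2 units for ASMM10P004812, above the median of 0.32 for the 2715 probes within 0.25 log2 units of its brightness, of which 79.7% had a smaller spread. For ASMM10P053930 it was 0.32, near the median of 0.33 for its 3124 like probes, with 46.2% smaller. Each Igf1 probe had a single spot per array, so its own spread over spots is unknown. Control genes with 20 spots per array give a scale, with a median SD over the spots of an array of 0.040 log2 units for Tbp (mean signal 10.95), 0.032 for Gusb (10.19), 0.037 for G6pd2 (9.24), 0.084 for Gk (8.20) and 0.174 for Ldhal6b, the dimmest at 5.502, and a median of 0.032 over all 15. The SD between mice of the same genes, after their spots were averaged, was 0.370 in Nrf2 (+/+) and 0.325 in Nrf2 (−/−) mice for Gusb, 0.128 and 0.233 for Tbp, 0.048 and 0.228 for G6pd2, 0.070 and 0.185 for Ldhal6b, and 0.049 and 0.028 for Gk. These are SDs of averages and not of single spots. Among these 5 genes, with mean log2 signals from 5 to 11, the SDs of Gusb were highest. They were of the order of the spread of the Igf1 probes. Over all 15 control genes the highest was that of the far brighter Hsp90ab1 (mean signal 16.22). It was 0.552 in Nrf2 (−/−) and 0.110 in Nrf2 (+/+) mice.

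Other genes of the study's list with several probes give a scale for this pair. The list held 9 such genes with 14 pairs of probes, all chosen, like those of Igf1, for a difference between the genotypes. The r of the deviations from genotype means had a median of 0.97 over the 13 pairs of the other 8 genes and ran from 0.34 for Grip1, a scaffold protein that binds AMPA receptors, to 0.99 for Ly6c1, a surface antigen found on endothelial cells and monocytes. It was above that of Igf1 in 10 of the 13 pairs, including all 6 of Ly6a and those of the chromatin remodeler Smarca4 and of fibronectin (Fn1). The log2 fold changes of 2 probes of one gene differed by a median of 0.06 over these 13 pairs. Since 6 of the pairs are of Ly6a, the medians with each gene counted once were 0.17 for the difference and 0.87 for the r, with 5 of the 8 genes above the r of Igf1. The difference of 0.71 for Igf1 was the largest of the 14, followed by 0.68 for the septin Sept6 and 0.46 for Grip1.

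**Figure D5:**
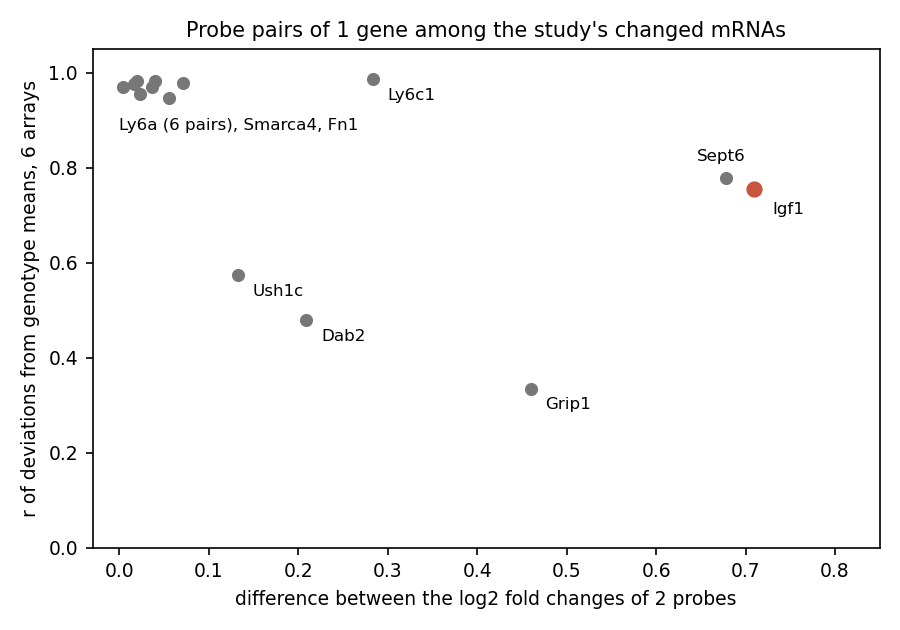
Pairs of probes of 1 gene among the study's changed mRNAs, with the difference between their log2 fold changes (x axis) and the r of their deviations from genotype means over 6 arrays (y axis). Igf1 (red) lies farthest to the right, at 0.71 and r = 0.76, next to Sept6.

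The probes whose pattern was most like that of each Igf1 probe were found by the Pearson r of log2 signals over the 6 arrays, among all probes tested. For ASMM10P004812 the 10 highest values ran from 0.993 to 0.997. Of these probes 5 could be named, and they were Zfp663, Ccdc175, Sfmbt2 (a Polycomb group protein), Myo9b (an unconventional myosin) and Nek2 (a kinase of the centrosome). For ASMM10P053930 they ran from 0.988 to 0.997, and the named probe was Areg (amphiregulin, a ligand of the EGF receptor) at 0.990. No probe was among the 10 of both.

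Of the 43527 other probes, 395 had an r above 0.90 with the first Igf1 probe and 439 with the second. Both were reached by 297 of them, which is 75.2% of the first set and 67.7% of the second. The Igf1 probes had r = 0.93 with each other, so a large overlap follows from that and is no separate finding. An r below -0.90 was found for 351 and 326 probes. Among the 20 named probes nearest to each, 7 were shared, for Vat1, Gm21943, Cyp3a25, S100z, Def8, Batf2 and Angpt1. Angpt1, the angiopoietin that activates the receptor Tie2 on vessels, had r = 0.98 with both. Among the probes tested, names were known for 412, all from the list of changed mRNAs, so these named neighbours all differ between the genotypes by their choice.

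Of 51 genes of the IGF pathway listed for this report (ligands, receptors, binding proteins, adaptors and kinases, and growth hormone and somatostatin signaling), only Igf1 itself and Sstr1 could be tied to a probe, and those only because the study listed them as changed. Igf1r, Igf2 and the Igfbp genes are therefore not reported here. Sstr1, a receptor for somatostatin, which restrains growth hormone release, read 12.76, 12.50 and 12.84 in Nrf2 (+/+) replicates 1, 2 and 3, and 12.19, 11.80 and 12.32 in Nrf2 (−/−) replicates 1, 2 and 3. The genotypes did not overlap, which its place on that list made likely and which held in this direction for 6.19% of all probes tested. The log2 fold change was -0.60 (SE 0.22, limma adjusted p = 0.897). By the adjusted p from limma, 0 of the 2 genes with a named probe passed 0.05, where 0.0482% of all probes did, so nothing can be read from that count. Both had an unadjusted p below 0.05, which their choice had fixed.

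The nearest gene to Igf1 on chromosome 10 with a named probe was Mybpc1, a myosin-binding protein of slow muscle, with 8 protein-coding genes between it and Igf1 in RefSeq order. It read 8.84, 8.07 and 8.87 in Nrf2 (+/+) replicates 1, 2 and 3, and 7.58, 7.03 and 7.72 in Nrf2 (−/−) replicates 1, 2 and 3. Its log2 fold change was -1.15 (SE 0.30, limma adjusted p = 0.510), and within each genotype replicate 2, the highest array for ASMM10P004812, was its lowest.

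Of 48 marker genes for hippocampal neurons, interneurons, microglia, other cells of the tissue and neighboring regions, Drd2 and Slc6a3 could be named, both from the list of changed mRNAs. Drd2, the dopamine receptor of the striatum, read 8.34 ± 0.16 in Nrf2 (+/+) and 9.11 ± 0.43 in Nrf2 (−/−) mice (SD, n = 3; log2 fold change 0.77, limma adjusted p = 0.815). Slc6a3, the dopamine transporter of midbrain neurons, read 5.15 ± 0.20 and 4.44 ± 0.19 (log2 fold change -0.71, adjusted p = 0.618). The markers of interneurons and microglia, cells known to express Igf1, and those of the hippocampus itself had no named probe, so their part in the Igf1 difference was not tested.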

How the data were processed

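The 6 mice (3 Nrf2 (+/+), 3 Nrf2 (−/−)) gave 1 hippocampal array each. The authors extracted spot intensity values with Agilent Feature Extraction 11.0.1.1 (background subtracted, not normalized between arrays) and deposited them together with quantile-normalized log2 signals for 60902 probes. The log2 signals computed here differed from the deposited log2 signals by a median of 0.00097. From 61500 non-control spots per array, 15 negative-control names were left out, flagged spots (16 to 91 per array) were set to missing, log2 signals were averaged per probe and quantile-normalized, and a probe was kept where 3 or more of the 6 arrays had it well above background. Genotypes were compared with limma 3.58.1 in R 4.3.3, with Benjamini-Hochberg adjustment over 43528 probes. The number of arrays limits the precision. No exact permutation test was run, since 3 values against 3 cannot give a two-sided p below 0.1.

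The files hold no gene names. Probes were named through the study's list of changed mRNAs, whose fold change and p served as a join key only (relative tolerance 1e-04; 412 of 412 entries matched 1 probe each). Control genes were named by transcript through RefSeq (GRCm38.p6); the probe design follows mm9. The members and lists were chosen with earlier results of these data known. Genes named are both Igf1 probes, Nfe2l2, nameable members of the IGF list and neighbours, and the probes most correlated with each Igf1 probe; Mybpc1, Drd2, Slc6a3 and the genes with several probes were named after their values were seen. The comparisons with probes of like brightness and with surrounding spots were also chosen after seeing the data. Scripts were tested on simulated data. Figures used Python 3.11.15 and matplotlib 3.10.9. Normexp used the median spot signal, as the files hold no mean spot signal.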

Additional observations from a re-analysis of the deposited data

How the results depend on the processing

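The log2 fold changes of both Igf1 probes were negative under each of 18 alternatives, from -1.80 to -0.88 for ASMM10P004812 and from -1.05 to -0.11 for ASMM10P053930, and the difference between them ran from -0.92 to -0.49. Many of these could not have turned the sign. The probe filters, the other tests and the replicate block cannot change a fold change. With single arrays left out, or slide or scan session as a block, the sign was fixed by the lack of overlap between the normalized genotypes. They moved by more than the spread between mice without normalization between arrays (-0.88, adjusted p = 0.101, and -0.11, adjusted p = 0.777) and, for the second probe, with normexp (-0.45). Leaving out single arrays, the probes ran from -1.80 to -1.28 and from -1.05 to -0.63 (limma adjusted p from 0.0708 to 1.00 and from 0.0911 to 1.00), the difference from -0.92 to -0.49, and the r of deviations from 0.32 to 0.89. The unadjusted p of ASMM10P053930 was 0.0597 without Nrf2 (−/−) replicate 3 and 0.0879 by Welch's test. The count of probes lower in Nrf2 (−/−) mice, 1156, became 225 without normalization (18399 higher), 643 with normexp, 633 by Welch's test, 2619 with the slide as a block (2289 higher), 1386 with the replicate block (1235 higher), and 777 to 2011 with each array left out, the highest without Nrf2 (+/+) replicate 2, where 2371 were higher. After the 75th percentile shift 976 were lower and 1003 higher, against 1156 and 544. The 21 probes with an adjusted p under 0.05 became 52 without normalization, 9 without the filter on dim probes and 9 with all 6 arrays above background, 574 with the slide as a block, 0 by the methods' t-test (2530 with an unadjusted p under 0.05), 0 by Welch's test (1887), and 8 to 195 with each array left out (8 without wild-type replicate 1, 10 without wild-type replicate 3, 12 without knockout replicate 3 and 195 without knockout replicate 2). The replicate numbers were not taken to pair the mice. The r of deviations was -0.15, 0.43 and 0.81 for numbers 1, 2 and 3 and had to pass 0.1 for each. Between different numbers it ran from -0.67 to 0.23. Numbers 1 and 3 each shared a slide, as inferred from the scan time, across genotypes. With the replicate block the adjusted p of the Igf1 probes was 0.207 and 0.245 and 0 probes passed (7090 with an unadjusted p under 0.05). The cause of these changes was not tested.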
